A study of Homo sapiens with 4 samples.

Results

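The entries described here are the microRNAs of the miR-25, miR-32, miR-92, miR-363 and miR-367 family on a microarray of exosomal small RNA. All entries whose name is miR-25, miR-32, miR-92a, miR-92b, miR-363 or miR-367, with any arm or copy number, were taken, which gave 10 of the 1308 entries of the array. Exosomes are small vesicles that cells release, and these came from Hep3B, an established human hepatocellular carcinoma line that lacks the tumour suppressor p53. Small RNA was measured in 1 colour (Cy5) on 4 arrays. On 2 of them the cells had received 10 µM camptothecin, which traps topoisomerase I on DNA and so causes strand breaks, and on the other 2 no treatment per the labels. Headers of the authors' deposited table of ratios name the comparator DMSO instead, and which of these it was is not settled by the sources used here. Both groups were kept in medium free of other exosomes for 2 days. The question of the study was which exosomal microRNAs differ after an anticancer drug.

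A microRNA hairpin yields a guide arm, which is loaded into Argonaute and finds its targets through its seed, and a passenger arm, which is mostly degraded. Guide arms with the same seed are taken to repress overlapping sets of messages, and for this family these include the cell death gene BCL2L11. The hairpins lie in several growth-promoting clusters. miR-25 is processed from an intron of the replication gene MCM7, miR-92a-1 is the last hairpin of the miR-17-92 cluster, miR-92a-2 and miR-363 end its paralog on the X chromosome, and miR-367 belongs to a cluster typical of embryonic stem cells.

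RefSeq holds 13 mature arms of these hairpins, and 10 of them have an entry here. miR-92a-3p, miR-32-5p and miR-367-5p were not analysed here, so the best known guide arm of the family, miR-92a-3p, has no value in what follows. All 10 entries were matched by name to RefSeq mature sequences (GRCh38.p14). The 4 guide arms are shown first because the family is defined by their seed, bases 2 to 8 from the 5′ end, which is in capitals and is the same in all of them.
miR-25-3p: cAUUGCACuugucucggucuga
miR-363-3p: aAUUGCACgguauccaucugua
miR-92b-3p: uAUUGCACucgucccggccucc
miR-367-3p: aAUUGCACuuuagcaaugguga

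No other entry with a RefSeq sequence carried this seed, among 1105 so matched. The 6 passenger arms follow with the same positions in capitals, because the 3 largest changes in the family are theirs. They have 6 different seeds, none of them that of the guide arms, and no other matched entry carried any of the 6.
miR-92b-5p: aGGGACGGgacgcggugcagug
miR-363-5p: cGGGUGGAucacgaugcaauuu
miR-32-3p: cAAUUUAGugugugugauauuu
miR-92a-1-5p: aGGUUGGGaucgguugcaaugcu
miR-25-5p: aGGCGGAGacuugggcaauug
miR-92a-2-5p: gGGUGGGGauuuguugcauuac

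The passenger arms differed widely in base composition. miR-92b-5p was 72.7% G and C, with 12 G among its 22 bases, and miR-32-3p was 27.3%, against a median of 54.5% over the 1105 matched entries. Runs of the exact complement of the guide seed were searched, so pairs of G with U were not counted. The longest such run lies near the 3′ end in the passenger arms other than miR-32-3p. In miR-32-3p the longest exact run, CAAU, is at positions 1 to 4, and pairing that includes G with U was not searched. The run UGCAAU, which is complementary to bases 2 to 7 of the guide arms, stands at positions 15 to 20 of miR-363-5p and of miR-92a-1-5p, and 0.905% of matched entries contain it (sense strand searched). In miR-92b-5p the longest run shared with the seed's complement is 5 bases, GUGCA.

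For miR-25, miR-363 and miR-92b both arms were measured, and their hairpins are shown because the comparison of arms rests on them. The mature arms are in capitals, the 5p arm first, and in all 3 the 3p arm is the guide.
miR-363: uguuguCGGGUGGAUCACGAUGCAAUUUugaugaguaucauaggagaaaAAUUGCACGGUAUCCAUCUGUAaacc
miR-92b: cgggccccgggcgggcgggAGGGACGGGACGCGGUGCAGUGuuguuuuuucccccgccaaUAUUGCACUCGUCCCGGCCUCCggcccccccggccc
miR-25: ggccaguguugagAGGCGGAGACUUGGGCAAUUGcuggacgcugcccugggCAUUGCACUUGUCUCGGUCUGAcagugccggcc

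In GRCh38.p14, RefSeq places MIR363 on the minus strand at chrX:134169378-134169452 within the span of the non-coding gene MIR106AHG. MIR92B lies on the plus strand at chr1:155195177-155195272 within the span of THBS3-AS1, and MIR25 on the minus strand at chr7:100093560-100093643 within that of MCM7. The table used gives gene spans and no exons.

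Values are deposited intensities in arbitrary units on a linear scale. On each array they ran from 109 to 8435 after camptothecin and from 91.4 to 12998 without it, and every array had its 75th percentile at 250.2. The sorted values of both arrays of a group are identical, at 1308 of 1308 positions in each group, which is what quantile normalization within a group produces. Some of the difference between replicates is then already gone, and the p-values are too small. Whether replicates were separate cultures is not stated, so the p-values measure only the spread between these arrays, which may be technical. Of the liver markers, miR-122-5p was dim, at 135 and 139 after camptothecin and at the 3.82 percentile of level. The summed intensity of the 3 liver markers ran from 454 to 457 after camptothecin and from 360 to 386 without it. All 3 were called higher, where 35.1% of all entries were. The share was 61.5% in the dimmest quartile of level, with miR-122-5p, and 39.1% in the next, with miR-192-5p and miR-194-5p. The part of these markers in the family's values was not tested. No background reading accompanies the values, so how far dim entries lie above background is unknown.

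The guide arms were dim. All 4 lay below the median level of the array, from the 0.382 percentile of level (miR-367-3p) to the 41.8 percentile (miR-25-3p). Intensity also depends on how well each probe hybridises, so an order between entries is an order of signals and not of RNA amounts.

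miR-92b-3p read 149 and 130 after camptothecin and 115 and 114 without it. Both treated arrays lay above both untreated ones, but the treated replicates had an SD of 13.2, against 1.21 for the untreated. It rose by 1.21-fold, or 0.28 ± 0.074 on the log2 scale (SE, 2 arrays a group; limma adjusted p = 0.0291). miR-363-3p read 159 and 138 after camptothecin against 128 and 120 without it, again with no overlap. It rose by 1.19-fold (0.26 ± 0.080 SE; limma adjusted p = 0.0458), just inside the threshold of 0.05. miR-25-3p, the guide arm of highest signal here, read 164 and 149 against 146 and 150, and its groups overlapped (0.08 ± 0.059 SE on the log2 scale; limma adjusted p = 0.300).

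miR-367-3p, known from pluripotent cells, had the lowest signal of the family. It read 109 on both treated arrays, where it was the dimmest of all 1308 entries, and 105 and 109 without treatment (0.03 ± 0.057 SE on the log2 scale; limma adjusted p = 0.707). Its equal treated values are the lowest value that normalization within the group assigns, so their zero spread is no measure of precision.

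**Figure D1:**
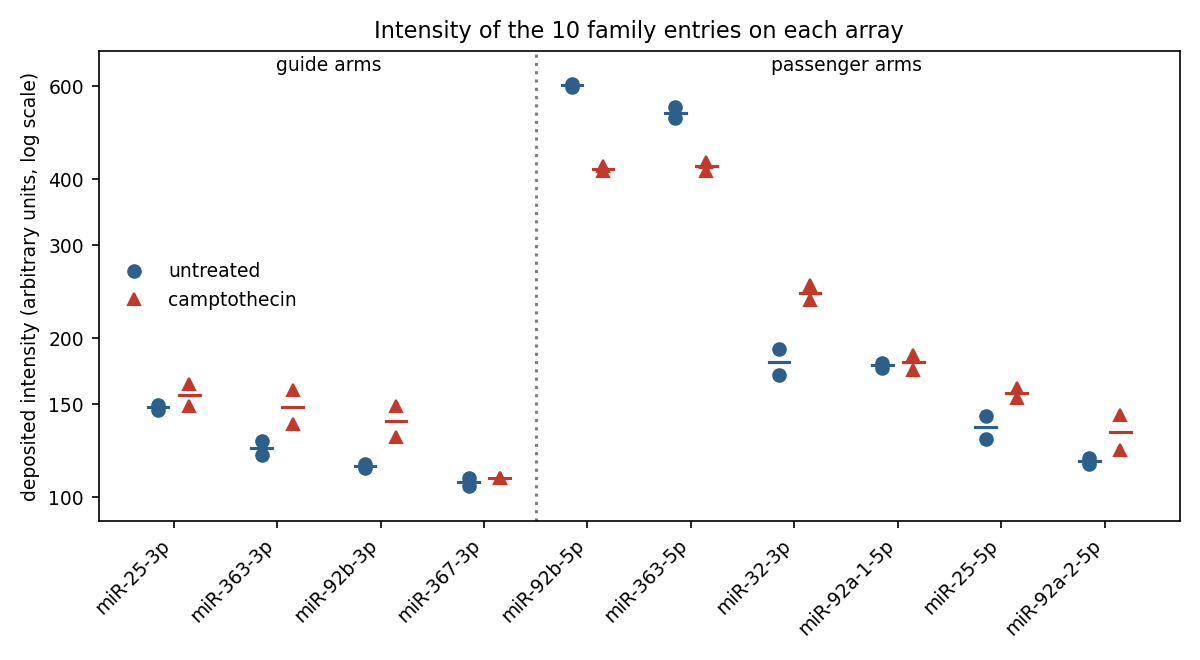
Deposited intensity (arbitrary units, log scale) of the 10 family entries, with a point for each array and a line at each group's mean, guide arms left of the dotted line. miR-92b-5p and miR-363-5p stand above the rest, between 414 and 606, with both treated arrays below both untreated arrays, while the guide arms lie between 105 and 164.

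The passenger arms spanned a wider range of signal, from the 7.49 percentile of level (miR-92a-2-5p) to the 89.6 percentile (miR-92b-5p), and 2 of the 6 lay below the median level.

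miR-92b-5p had the highest mean signal of the family over the 4 arrays, though miR-363-5p was higher in the mean after camptothecin (423 against 419), and it had the largest change. It read 414 and 423 after camptothecin (SD 6.21) and 598 and 606 without it (SD 5.74), with no overlap. The arrays of a group share their sorted values, so these SDs may understate the spread between replicates. miR-92b-5p fell 1.44-fold (-0.52 ± 0.048 SE on the log2 scale, 2 arrays a group; limma adjusted p = 0.00274). This is the GC-rich arm shown above, opposite the dim guide arm miR-92b-3p.

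miR-363-5p, the other bright passenger arm, read 431 and 415 after camptothecin and 547 and 522 without it. The treated arrays were again both below the untreated ones. It fell 1.26-fold (-0.34 ± 0.054 SE; limma adjusted p = 0.00957), and 11 of its 22 bases are G or C, against 16 of 22 in miR-92b-5p.

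miR-32-3p, the passenger arm of the hairpin within TMEM245, moved the other way. It read 252 and 236 after camptothecin and 191 and 170 without it, with no overlap. It rose 1.35-fold (0.44 ± 0.070 SE; limma adjusted p = 0.00985), the largest increase in the family.

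miR-25-5p read 161 and 154 against 143 and 129, camptothecin first, and rose 1.16-fold (0.22 ± 0.063 SE; limma adjusted p = 0.0389). miR-92a-2-5p read 123 and 143 against 115 and 119 and did not pass (0.18 ± 0.080 SE; limma adjusted p = 0.116). miR-92a-1-5p, from the miR-17-92 transcript, read 174 and 186 against 179 and 176, with overlapping groups (0.02 ± 0.050 SE; limma adjusted p = 0.770). The passenger arms of both miR-92a copies, which share 1 guide arm, thus both stayed short of the threshold.

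In the fit across all entries, 6 of the 10 family entries passed the test, where 46.3% of all entries did. Of these, 4 were higher (35.1% of all entries) and 2 lower (11.2%). By arm, the guide arms held 2 higher and 0 lower among 4, and the passenger arms 2 higher and 2 lower among 6. The median log2 fold change was 0.13 over the family and 0.11 over all entries. Both treated arrays lay above both untreated ones for 6 members (59.4% of all entries) and below for 2 (19.3%). With shares this close to the background, the counts say little about the family as a whole.

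The background itself varied with level. In the dimmest quartile of entries, 61.5% were called higher and 0% lower. miR-92b-3p, miR-363-3p, miR-367-3p and miR-92a-2-5p lie in that quartile. In the next quartile, with miR-25-3p and miR-25-5p, 39.1% were called higher and 0% lower. In the third quartile, from 164 to 252 in mean intensity, 21.1% were called higher and 5.50% lower, and miR-32-3p, called higher, and miR-92a-1-5p lie there. In the brightest quartile 18.7% were called higher and 39.4% lower, and both of its family entries, miR-92b-5p and miR-363-5p, fell. GC content moved with level too. Its median was 47.6% in the dimmest quartile and 63.2% in the brightest, and within the brightest quartile it was 68.4% for entries called lower and 59.1% for those called higher. The part of level and base composition in the members' changes was not tested.

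**Figure D2:**
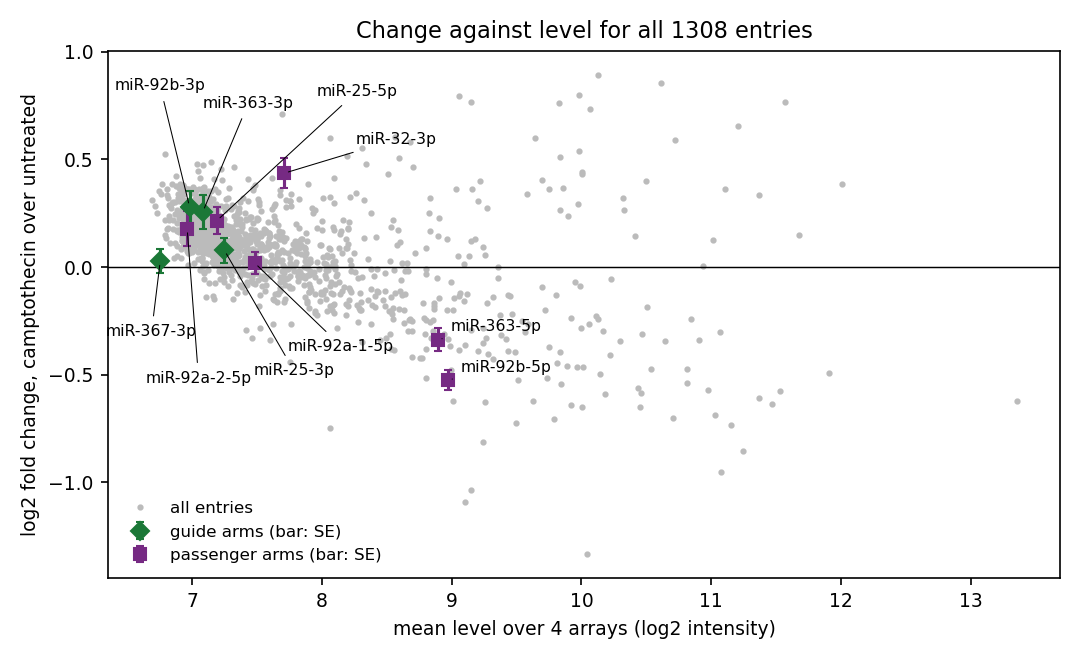
Log2 fold change (camptothecin over untreated) against the mean log2 intensity of 4 arrays for all 1308 entries in grey, with guide arms as diamonds and passenger arms as squares, and bars of 1 SE. Dim entries lie mostly above 0, where miR-92b-3p (0.28) and miR-363-3p (0.26) sit, and miR-92b-5p (-0.52) and miR-363-5p (-0.34) lie among brighter entries that are mostly below 0.

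Ranks within each array do not depend on the scaling between groups, and by rank fewer members separated. miR-32-3p stood at the 75.2 and 72.4 percentiles of its arrays after camptothecin and at 62.7 and 55.3 without it, and it was the 1 member whose treated ranks were both above (27.1% of all entries). The treated ranks of 4 members were both below (31.4% of all entries). These were miR-92b-5p, at 87.4 and 87.8 against 91.1 and 91.3, miR-363-5p, at 88.1 and 87.5 against 90.4 and 89.4, miR-92a-1-5p, at 51.6 and 57.5 against 59.2 and 57.6, and miR-367-3p, at 0.0765 on both against 2.37 and 3.94. The ranks of the guide arm miR-92b-3p overlapped, at 29.5 and 5.50 against 8.60 and 6.995. Those of miR-363-3p overlapped as well, at 41.5 and 13.4 against 23.4 and 13.99. In both, the camptothecin replicates differed more from each other than the group means did.

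Arms of 1 hairpin come from the same precursor, so the change in their log2 ratio asks whether they moved apart after camptothecin. A scaling factor per array cancels in it, but a difference in scaling that depends on level does not. The ratio was compared between groups for all 245 hairpins with a 5p and a 3p entry, and its absolute value carries the probes' own efficiencies, so only its change is read. For miR-92b, log2 of 5p over 3p was 1.48 and 1.70 after camptothecin and 2.37 and 2.42 without it. The treated arrays were both lower, and the ratio fell by 0.80 (SE 0.092, 2 arrays a group; limma adjusted p = 0.000229 over the hairpins). For miR-363 it was 1.44 and 1.59 against 2.10 and 2.12, a change of -0.59 ± 0.083 SE (limma adjusted p = 0.000554). In both hairpins the passenger arm fell and the guide arm rose in the values as deposited. Under joint quantile normalization, described below, both guide increases and the fall of miR-363-5p kept their sign but did not pass. The ratio changes passed there but were smaller, at -0.47 for miR-92b and -0.28 for miR-363.

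miR-25 behaved otherwise. Its arms were close in signal, its log2 ratio was -0.03 and 0.05 after camptothecin and -0.03 and -0.22 without it, and the change of 0.14 ± 0.087 SE did not pass (limma adjusted p = 0.241). For each of the 3 hairpins an exact two-sided permutation test over the 4 arrays gave p = 0.333, the smallest that this design allows.

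Among the 245 hairpins, the arm ratio changed in 38.4%, with 5p over 3p lower in 26.9% and higher in 11.4%. By size of the change, miR-92b ranked 10 and miR-363 ranked 25. A 5p arm that fell beside a 3p arm that rose was found in 26 of the 245, these 2 included, and the reverse in 5. In both, the 5p entry lies in the brightest quartile and the 3p entry below the median level. Of the 19 hairpins of that kind, 52.6% had a lower ratio and 0% a higher one, with changes from -0.80, that of miR-92b, to 0.10 and a median of -0.27. Of the 19 hairpins with the reverse layout, 10.5% had a lower ratio and 47.4% a higher one. Of the 64 with both entries below the median level, as for miR-25, 3.12% were lower and 1.56% higher. The change of the ratio thus moved with which arm had the brighter signal, and the part of that in the change of miR-92b and miR-363 was not tested.

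**Figure D3:**
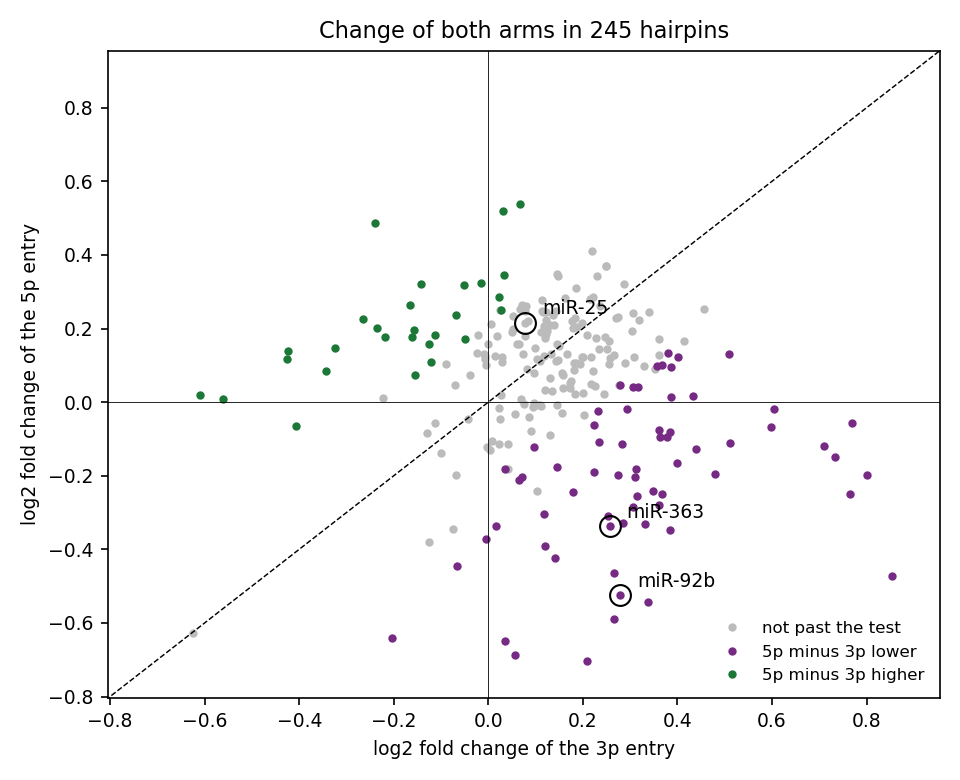
Log2 fold change (camptothecin over untreated) of the 5p entry against that of the 3p entry for 245 hairpins, coloured by whether the arm ratio changed past an adjusted p of 0.05, with a dashed line where both change alike. The circled miR-92b (5p -0.52, 3p 0.28) and miR-363 (5p -0.34, 3p 0.26) lie in the quadrant where the 5p arm is lower and the 3p arm higher, and miR-25 (5p 0.22, 3p 0.08) lies near the line.

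The small increases depended on how the arrays are scaled. The median log2 fold change of all entries was 0.11 as deposited, -0.0092 after joint quantile normalization of the 4 arrays, 0.0067 after centring each array on its median and 0.043 after normexp background correction. It was 0.24 with the 75th percentile taken over entries at or above the median level, a setting that raises all changes alike. Under joint quantile normalization, the log2 fold change of miR-92b-3p was 0.08 (limma adjusted p = 0.560), that of miR-363-3p 0.08 (0.598) and that of miR-25-5p 0.08 (0.447), and none of these passed. They did not pass after centring (9.02% of all entries higher, 16.2% lower) or normexp correction (8.10% and 6.50%) either. With the 75th percentile over brighter entries, where 68.2% of all entries were called higher and 6.35% lower, all 3 passed, at 0.40 for miR-92b-3p, 0.38 for miR-363-3p and 0.34 for miR-25-5p (limma adjusted p = 0.00516, 0.00788 and 0.00538). There miR-25-3p (0.20), miR-92a-2-5p (0.30) and miR-92a-1-5p (0.14) also passed (limma adjusted p = 0.0223, 0.0168 and 0.0426). miR-363-5p kept its sign under quantile normalization but did not pass (-0.20 ± 0.060 SE; limma adjusted p = 0.0912). miR-92b-5p and miR-32-3p passed in all 4 of these settings, at -0.39 ± 0.050 SE and 0.39 ± 0.069 SE under quantile normalization (limma adjusted p = 0.00871 and 0.0219), where 6.04% of all entries were called lower and 6.88% higher. The change in arm ratio passed there as well, at -0.47 ± 0.097 SE for miR-92b and -0.28 ± 0.086 SE for miR-363 (limma adjusted p = 0.0053 and 0.0336), with 22.9% of hairpins lower, and after normexp correction too, at -0.76 and -0.53. Leaving out either untreated array left 1 entry of the whole array past the test (0.0765%) and no member. The log2 fold change of miR-92b-5p was then -0.53 and -0.51 (limma adjusted p = 0.107 and 0.116). Without camptothecin replicate 1 or 2, 71 and 44 entries passed (5.43% and 3.36%), and miR-92b-5p was the 1 member among them (limma adjusted p = 0.0383 and 0.0424).

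**Figure D4:**
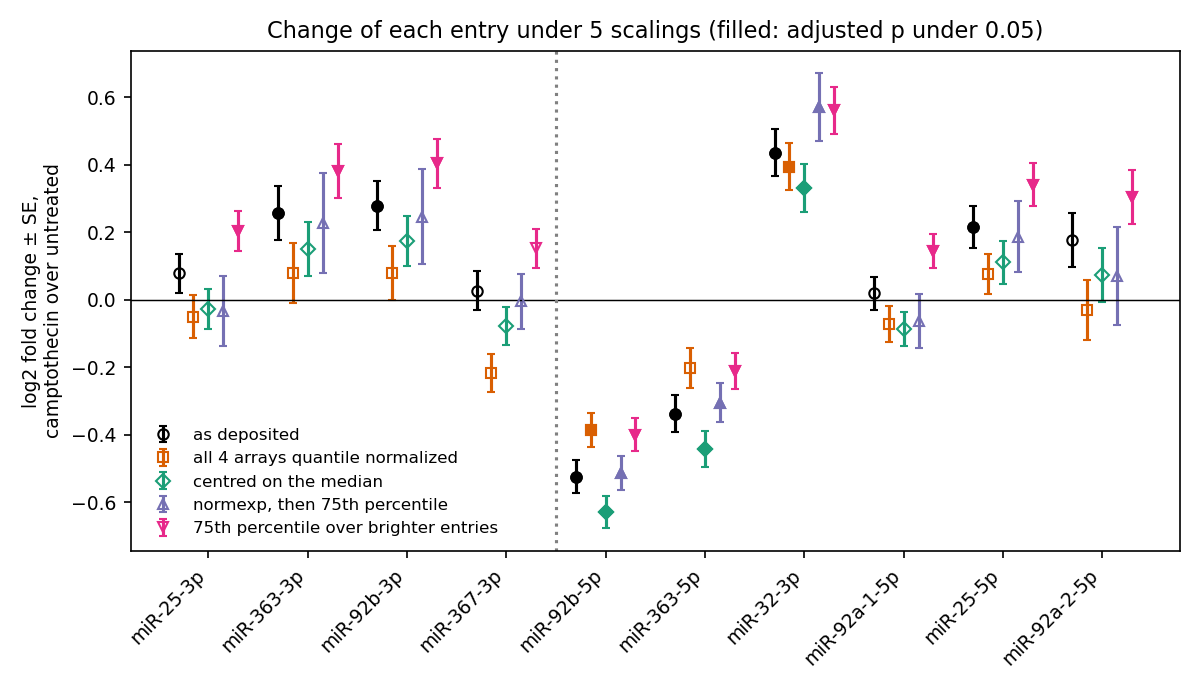
Log2 fold change ± SE (camptothecin over untreated) of the 10 family entries for the values as deposited and after quantile normalization of all 4 arrays, centring on the median, normexp correction, and scaling to the 75th percentile of brighter entries, with filled symbols for an adjusted p under 0.05. miR-92b-5p (-0.63 to -0.39) and miR-32-3p (0.33 to 0.57) are filled in all 5, and guide arms are filled for the deposited scaling and for the 75th percentile of brighter entries only.

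The entries analysed as partners, which share primary transcripts with the family, were dim. There were 12 of them, all below the median level. Other arms of these transcripts were not analysed, so the values describe these 12 entries and not the transcripts as a whole. In limma 8 were called higher and 0 lower (35.1% and 11.2% of all entries), with a median log2 fold change of 0.19. Of entries in the dimmest quartile 61.5% were called higher and in the next 39.1%, with 0% lower in both. Beside these shares, the counts say little about the partners as a group. The largest increases were those of miR-20b-3p (0.32), miR-302c-5p (0.25), miR-93-5p (0.23) and miR-302d-5p (0.23). miR-20b is in the cluster of miR-363, miR-302c and miR-302d are in that of miR-367, and miR-93 is in that of miR-25. The brightest were miR-19b-3p, which rose by 0.16, and miR-19a-3p, at 0.12 and not past the test. By transcript, 1 of 1 partner of miR-25 was called higher, 3 of 5 of miR-92a-1, 3 of 4 of miR-92a-2 and miR-363, and 2 of 3 of miR-367, with miR-19b-3p counted under both miR-92a copies. With quantile normalization of all 4 arrays 0 of the 12 passed in limma, 3 of them at an unadjusted p under 0.05.

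miR-25 and miR-92a are abundant in red blood cells, and serum in a medium can carry their RNA. The medium here was free of other exosomes, as said above, and miR-92a-3p has no value. Of the 4 red cell markers 1 was measured, miR-486-5p, at 258 and 269 after camptothecin and 261 and 272 without it. Its groups overlapped (-0.02 ± 0.051 SE on the log2 scale; limma adjusted p = 0.820). Of the white cell markers 2 of 4 were measured, with a summed intensity of 340 and 396 after camptothecin and 322 and 308 without it, and 1, miR-150-5p, was called higher. Of the embryonic markers 2 of 7 were measured, at sums of 280 and 267 against 228 and 249, and 1, miR-371a-3p, was called higher. Of all entries 35.1% were called higher. The share was 21.1% in the third quartile of level, with miR-150-5p, and 61.5% in the dimmest, with miR-371a-3p. The part of these markers in the family's values was not tested.

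By the distance between log2 values over the 4 arrays, the entries most like miR-92b-5p were miR-3934-5p (distance 0.0721), miR-1275 (0.0910) and miR-4488 (0.143). miR-3934-5p read 432 and 431 after camptothecin and 590 and 613 without it. The entries most like miR-25-3p were miR-5192 (0.0462), miR-512-3p (0.0738) and miR-2682-3p (0.0889), all between 143 and 162 on every array.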

How the data were processed

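Exosomal small RNA of Hep3B cells was hybridised to 4 arrays, 2 per group, and groups and replicate numbers follow the titles. The deposited values are intensities; how they were scanned, corrected and normalized is not given in the sources used here. Equal sorted values within a group and a shared 75th percentile were read from the values. The authors' deposited log2 ratios matched log2 of those intensities, treated minus comparator, within 5e-10 and were used only for this check. Names come from the same table, of which 4 columns were not used.

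Intensities were taken as log2 with no pseudocount and fitted in R 4.3.3 with limma 3.58.1 (lmFit, then eBayes with an intensity trend). Tests were two-sided, adjusted by Benjamini-Hochberg over 1308 entries, with a threshold of 0.05. Arm ratios, log2 of 5p minus log2 of 3p, were fitted alike over 245 hairpins; arms named without a copy number were paired with each copy, and 12 entries with several names were left out of the pairs. The code was tested on simulated data.

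All members are named. Of the partners, up to 4 past the test by size and the 2 brightest are named, and the 3 entries nearest to the brightest guide and the brightest passenger arm. Members and lists were chosen with earlier results of these data known. Alternatives were joint quantile normalization, centring on the median, a 75th percentile over brighter entries, normexp with an offset of 50, pseudocounts of 16 and 64, a filter on dim entries, eBayes without trend or robust, a replicate block, and omitting each array in turn. The number of arrays limits the precision. Sequences are from RefSeq.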

Additional observations from a re-analysis of the deposited data

How the results depend on the processing

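Counts of entries past the test depended on the scaling. Against 6 family entries, 606 of all entries and 8 partners as deposited, there were 2, 169 and 0 with joint quantile normalization, 3, 330 and 1 with centring on the median, and 3, 191 and 0 after normexp correction. With the 75th percentile over entries at or above the median level, 975 of all entries passed. The 8 partners then became 12, within 1.5 times, while the family count was 9. With only entries at or above the median level, 3 of 4 family entries passed, where 267 of the 654 entries tested did. Of the arm ratios 61 of 86 passed, a larger share than the 94 of 245 as deposited. No partner was left to test. With 1 array left out, the ranges were 0 to 1 family entries, 1 to 71 of all entries, 0 partners throughout in limma (4 to 8 of them at an unadjusted p under 0.05) and 68 to 92 arm ratios.

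Small log2 fold changes of 4 members turned sign. miR-25-3p turned to -0.050, -0.027 and -0.034, miR-367-3p to -0.218, -0.078 and -0.0045, and miR-92a-1-5p to -0.072, -0.087 and -0.063, under quantile normalization, centring and normexp in that order. miR-92a-2-5p turned to -0.030 under quantile normalization, and miR-92a-1-5p ranged from -0.031 (without camptothecin replicate 2) to 0.068 with 1 array left out. The cause was not tested. The changes in arm ratio of miR-92b and miR-363 kept their sign in all 13 alternatives that gave a value, from -0.92 to -0.47 and from -0.67 to -0.28. These alternatives are not independent of each other. Omitting an array leaves 1 array in its group, and the eBayes and block settings refit the same ratios. Centring and the other 75th percentile cannot move the ratio changes.

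The replicate numbers were not shown to pair the arrays. The correlation of deviations from the group means between same-numbered arrays was -0.07. With the replicate number as a block, 6 family entries, 550 of all entries, 85 arm ratios and 6 partners passed.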
